A study of Drosophila melanogaster with 32 samples.

Results

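Prom3 is 1 of 4 replicate laboratory populations of Drosophila melanogaster that evolved under promiscuous mating, and its mated females are compared here with those of the other promiscuous populations. The comparison takes the 4 expression arrays of Prom3 females against the 12 arrays of Prom1, Prom2 and Prom4 females, chosen by the female population in the labels, out of 32 arrays in all. The remaining 16 arrays come from females of the 4 populations kept under monogamy, Mono1 to Mono4. All 8 populations were founded from the outbred stock LHM and kept apart for 46 generations, with 1 mating per generation under monogamy and the usual mating protocol under promiscuity.

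Each array holds RNA of whole adult females frozen 6 h after mating. Within every female population, 2 arrays come from females mated to males of the same population and 2 from females mated to males of the opposite regime that carry the same population number. Prom3 females therefore met Prom3 males or Mono3 males and no others, so the number of the female line and that of the male line cannot be told apart among promiscuous females. In each cross 1 array was labelled batch 1 and 1 array batch 2, and the study's design text calls the replicates of a cross biological. A line is a single population. The tests between lines accordingly measure a difference against the spread between arrays of a line, and there is no second Prom3 population to compare.

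Populations that are kept apart come to differ in expression at many loci, and several of the gene families examined here are known to vary between wild flies. Cytochrome P450s and glutathione transferases, which oxidise and conjugate toxins, hormones and other small molecules, are encoded in clusters of related copies. Maltases split dietary disaccharides and maltose-like sugars in the gut, and the Mal-A copies lie side by side on one chromosome arm. Odorant-binding proteins carry small hydrophobic molecules, while serpins inhibit serine proteases. A female's transcripts also respond to mating itself, through the male's sex peptide and its receptor in the female.

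The deposited values are log2 expression values made with RMA, so a difference of 1 is a doubling of signal, and each gene was represented by its brightest probe set. Array medians lay between 5.41 and 5.50 in the 16 promiscuous arrays, and single values between 2.30 and 14.79. Arrays of Prom3 correlated with each other at 0.997 to 0.998 and with the other promiscuous arrays at 0.994 to 0.997, while arrays of Prom1, Prom2 and Prom4 correlated across lines at 0.995 to 0.997. The tissue label was checked against markers. The 6 measured yolk and eggshell markers of 7 listed stood at 12.22 to 14.79 on Prom3 arrays and at 11.69 to 14.77 on the other 12. The 5 male accessory gland markers lay between 2.57 and 4.96 on Prom3 arrays and between 2.61 and 4.83 elsewhere, and the 8 testis markers between 2.63 and 4.99 against 2.64 and 5.16. None of these 19 passed the test between Prom3 and the other lines. The eggshell gene Vm26Ab, the muscle myosin Mhc and the RNAs roX1 and roX2 had no probe set with a single gene. RNA integrity was read from control probe sets at opposite ends of a transcript, as the 3' signal minus the 5' signal. This difference was larger in Prom3 by 0.17 log2 units in actin, 0.0579 in GAPDH and 0.0519 in eIF-4a, and in each the Prom3 arrays lay within the range of the other 12. Between batches the gap was wider. Batch 2 exceeded batch 1 by 0.981 in actin, 0.389 in GAPDH and 0.931 in eIF-4a, and each line has 2 arrays in each batch.

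Prom3 females differed from the mean of the other promiscuous lines at 723 of 11982 genes (6.03%) in limma's test with Benjamini-Hochberg adjustment and a threshold of 0.05, with female population, mate regime and batch as terms. Of these, 373 were higher in Prom3 (3.11%) and 350 lower (2.92%). Over all 18769 probe sets, including those without a single named gene, 924 passed, 486 of them higher and 438 lower. The same contrast drawn for each of the other lines gave 641 probe sets for Prom1, 423 for Prom2 and 558 for Prom4, and these counts share arrays with one another. Set against one line at a time, Prom3 differed from Prom1 at 1024 probe sets, from Prom4 at 798 and from Prom2 at 636. The count of 924 was 249 in batch 1 alone and 163 in batch 2 alone, with fewer arrays, and 574 without the Prom3 array of Mono3 mates in batch 1 or 586 without that of Prom3 mates in batch 1.

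A narrower group of genes separated Prom3 from every other promiscuous line at once. It comprised 151 genes (1.26%) that passed against the mean of the others and against Prom1, Prom2 and Prom4 singly, all with one sign, 86 of them higher in Prom3 and 65 lower. Counted over probe sets there were 188 for Prom3, against 86 for Prom1, 75 for Prom2 and 85 for Prom4 by the same rule. The median size of the 151 differences was 0.57 log2 units, and 17 genes were more than 1 unit higher and 11 more than 1 unit lower. For 126 of the 151 the 4 Prom3 arrays lay outside the whole range of the other 12 arrays, which held for 237 of all genes (1.98%). All 151 had the same direction with monogamous and with promiscuous mates. The genes were selected on these same arrays, which largely fixes that agreement in advance. For 35 of the 151, 24 higher and 11 lower, the Prom3 arrays lay beyond all 28 other arrays of the series, monogamous lines included. For 54 at least 1 monogamous population mean was at or past that of Prom3. Both counts were taken only within the 151, which were chosen for standing apart, so no share of all genes stands beside them.

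When the 4 population means took the place of the arrays, so that the spread was that among Prom1, Prom2 and Prom4 with 2 residual degrees of freedom, 6 probe sets passed in limma, 2 higher and 4 lower, and 1247 had an unadjusted p under 0.05. They were the serpin gene Spn38F, Cyp12d1-d, CG30083, Odc2 and 2 probe sets with no gene named here, each with an adjusted p of 0.0345. The unnamed probe set that was lower had values much like those of Cyp12d1-d, and whether it reads the same transcript was not tested. The differences described below are tested against the spread between arrays of a line. For the genes with the 15 largest differences in each direction, other than the 4 just named, the adjusted p with populations as replicates was 0.0631 or more.

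The gene most raised in Prom3 was CG2772. It stood at 6.94 and 7.38 on the arrays of females mated to Mono3 males in batch 1 and batch 2, and at 7.01 and 6.58 on those mated to Prom3 males, against a lowest value of 3.88, a median of 4.19 and a highest of 6.46 on the other 12 arrays. The groups did not overlap, and the difference was 2.27 ± 0.19 log2 units (SE, 4.83-fold, adjusted p 6.89e-06). The other lines were themselves unequal here, with means of 3.96 in Prom1 and 4.31 in Prom2 but 5.84 in Prom4. The highest monogamous array read 5.85.

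GstO3, an omega-class glutathione transferase, read 11.15 and 11.02 with Mono3 mates and 10.55 and 11.37 with Prom3 mates, in batch order, against 8.79, 9.35 and 9.76 as the lowest, median and highest of the other promiscuous arrays. Every Prom3 array was higher than any other array of the series, of which the highest was a monogamous one at 10.05. The difference from the other promiscuous lines was 1.71 ± 0.13 (3.26-fold, adjusted p 2.67e-06). It measured 1.53 within batch 1 and 1.88 within batch 2.

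Obp57a, an odorant-binding protein, stood at 10.27 and 9.71 with Mono3 mates and at 10 and 9.66 with Prom3 mates, against 7.74, 8.19 and 8.97. Again no array of another promiscuous line reached the Prom3 values, nor did any monogamous one, the highest of which was 9.28. The difference was 1.63 ± 0.16 (3.09-fold, adjusted p 2.56e-05).

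Spn38F, a serpin, was at 4.24 and 4.62 with Mono3 mates and 4.21 and 4.91 with Prom3 mates, while the other 12 arrays stayed between 2.71 and 3.24 with a median of 2.98. Those lower values lie close to the lowest value on the arrays (2.30), so the difference of 1.52 ± 0.12 sets a dim signal against one near the floor of the scale. The monogamous population Mono4 was brighter still, at a mean of 6.06. PGRP-SC2, an amidase that degrades peptidoglycan and dampens the gut's immune response to bacteria, read 10.56, 10.95, 10.24 and 10.78 in the same order of arrays, against 8.01, 8.96 and 10.12. Its groups were separated by a narrow gap, and its difference of 1.60 ± 0.30 had the largest error of the raised genes (adjusted p 0.00511).

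The remaining raised genes by the naming rule were Mal-A6 (1.92 ± 0.18), CG10559 (1.81 ± 0.13), CG32751 (1.55 ± 0.17), CG13325 (1.46 ± 0.15), Rdh1 (1.44 ± 0.17), Drep1 (1.31 ± 0.12), Cyp4p1 (1.28 ± 0.12), CG10560 (1.26 ± 0.14), CG9672 (1.12 ± 0.12) and Cyp9b1 (1.07 ± 0.15). Rdh1 belongs to the short-chain dehydrogenases and Drep1 to the family of DNA fragmentation factors. In each of these 10 the Prom3 arrays lay above all 12 others. CG32751 was at 8.96, 8.80, 8.69 and 8.60 in Prom3 against at most 8.35 in the other promiscuous lines, whose means ran from 6.36 in Prom2 to 7.83 in Prom4, and at most 7.43 in the monogamous ones.

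**Figure D1:**
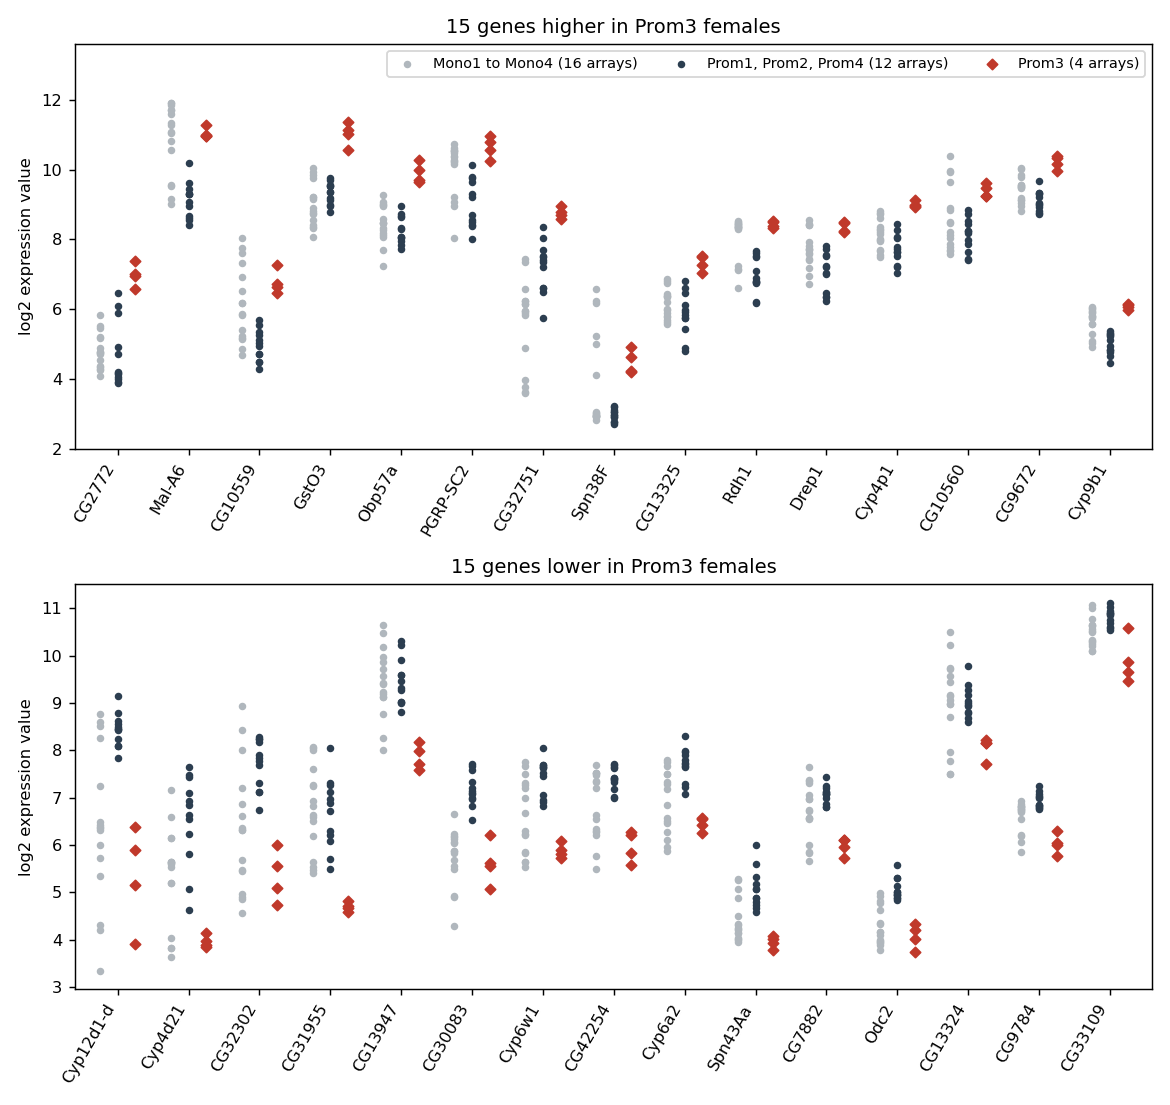
Log2 expression value (y axis) of the 15 genes with the largest difference in each direction among those where Prom3 stood apart from every other promiscuous line, with 1 point per array: Prom3 (diamonds, 4 arrays), Prom1, Prom2 and Prom4 (dark points, 12 arrays) and Mono1 to Mono4 (grey points, 16 arrays). The Prom3 arrays lie outside the range of the 12 for every gene except CG33109, while the grey points often span both.

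The gene most reduced in Prom3 was Cyp12d1-d, a mitochondrial P450 and 1 of a pair of nearly identical tandem copies. It read 5.16 and 5.89 with Mono3 mates and 6.39 and 3.90 with Prom3 mates, against 7.84, 8.46 and 9.15 as the lowest, median and highest of the other promiscuous arrays. The Prom3 arrays were all lower yet far from each other, with an SD of 1.09. The difference was -3.10 ± 0.32 (8.57-fold lower, adjusted p 3.51e-05), at -2.51 within batch 1 and -3.69 within batch 2. Whether its probes tell the copies apart was not tested.

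Cyp4d21, also known as sxe1, was at 3.84, 4.15, 3.88 and 3.97 on the Prom3 arrays in the same order, against 4.63, 6.73 and 7.65. The Prom3 values sat close together near the low end of the scale. The other lines spread widely, with means of 6.93 in Prom1, 7.21 in Prom2 and 5.44 in Prom4, and the difference was -2.57 ± 0.23 (adjusted p 1.10e-05).

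CG31955 read 4.72, 4.66, 4.81 and 4.59 in Prom3, while the other promiscuous arrays ran from 5.50 to 8.04 with a median of 6.80. No monogamous array was below 5.41, so the Prom3 arrays were the lowest of the series, and the difference from the other promiscuous lines was -1.98 ± 0.16 (adjusted p 4.84e-06). CG32302 was at 5.09, 4.73, 5.55 and 6.00 against 6.74, 7.80 and 8.29, a difference of -2.36 ± 0.20. For this gene Mono3 and Mono4, with means of 5.39 and 5.30, were as low as Prom3 at 5.34.

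Odc2, which encodes 1 of the 2 ornithine decarboxylases that start polyamine synthesis, stood at 4.20, 4.01, 4.33 and 3.74 against 4.83, 4.98 and 5.58 in the other promiscuous lines. The means of those lines were nearly equal, at 5.06, 5.08 and 5.05, and the difference was -0.99 ± 0.13 (adjusted p 0.000317). CG30083 was likewise even across the others, with means of 7.26, 7.12 and 7.15 against 5.61 in Prom3 (-1.57 ± 0.21). All 4 monogamous means of CG30083 were also low, from 5.04 to 6.23.

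Lower by the same rule were CG13947 (-1.60 ± 0.15), Cyp6w1 (-1.55 ± 0.09), CG42254 (-1.43 ± 0.13), Cyp6a2 (-1.24 ± 0.11), the serpin Spn43Aa (-1.11 ± 0.15), CG7882 (-1.10 ± 0.09), CG13324 (-0.98 ± 0.13), CG9784 (-0.92 ± 0.06) and CG33109 (-0.92 ± 0.12). The Prom3 arrays lay below all 12 others in the first 8 of these. In CG33109 1 Prom3 array (10.59, Mono3 mates, batch 1) fell inside the range of 10.54 to 11.12, and the other 3 were at 9.46 to 9.87. CG9784 had the smallest error, and its Prom3 arrays at 5.77 to 6.29 were clear of the others at 6.77 to 7.25.

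Of the gene lists examined, that of the cytochrome P450s held the most genes that passed. All 81 were measured, and 20 passed (24.7%, against 6.03% of all genes), 7 of them higher in Prom3 and 13 lower, with a family median of -0.0035 against -0.0069 for all genes. In 10 of them Prom3 stood apart from every other line, 3 higher and 7 lower. Beside Cyp12d1-d and Cyp4d21, the lower ones were Cyp6w1, Cyp6a2, Cyp6a13 (-0.66 ± 0.08), Cyp6a14 (-0.62 ± 0.06) and Cyp9b2 (-0.54 ± 0.07), and the higher ones Cyp4p1, Cyp9b1 and Cyp4d20 (0.54 ± 0.08). Cyp6a2 and Cyp6w1 are both known for high expression in flies resistant to insecticides. Cyp6a2 read 6.57, 6.54, 6.25 and 6.43 in Prom3 against 7.08, 7.73 and 8.30, and Cyp6w1 read 5.80, 5.72, 6.08 and 5.89 against 6.82, 7.57 and 8.06. In both the groups were separate and Prom2, at 7.31 and 6.93, was the line nearest to Prom3. Cyp6g1, the P450 best known for DDT resistance, did not pass (-0.25 ± 0.09, adjusted p 0.136), nor did Cyp6g2 (-0.05 ± 0.08).

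By position, 33 of the 81 P450 genes lie on arm 2R, and these held 3 of the 7 higher and 9 of the 13 lower genes. On arm 2L 2 were higher and 2 lower among 13, on 3L 2 and 1 among 6, and on 3R 0 and 1 among 15. None of the 14 on the X chromosome passed. P450 genes that passed against the mean of the other lines but not against each of them included Cyp4e3 (-0.80 ± 0.22), Cyp4aa1 (-0.75 ± 0.12), Cyp6a9 (-0.51 ± 0.10), Cyp6d4 (-0.42 ± 0.11) and Cyp12c1 (-0.24 ± 0.05) on the lower side. On the higher side they included Cyp309a2 (0.38 ± 0.08), Cyp310a1 (0.32 ± 0.08) and Cyp305a1 (0.28 ± 0.07). In 4 of these another line was close to Prom3 or past it. Cyp4e3 averaged 7.27 in Prom1, 7.29 in Prom2 and 7.11 in Prom3, and only Prom4 was far away at 9.19. Cyp6d4 averaged 6.89 in Prom1 and 6.80 in Prom3, Cyp12c1 7.37 in Prom2 and 7.39 in Prom3, and Cyp310a1 4.42 in both Prom2 and Prom3.

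**Figure D2:**
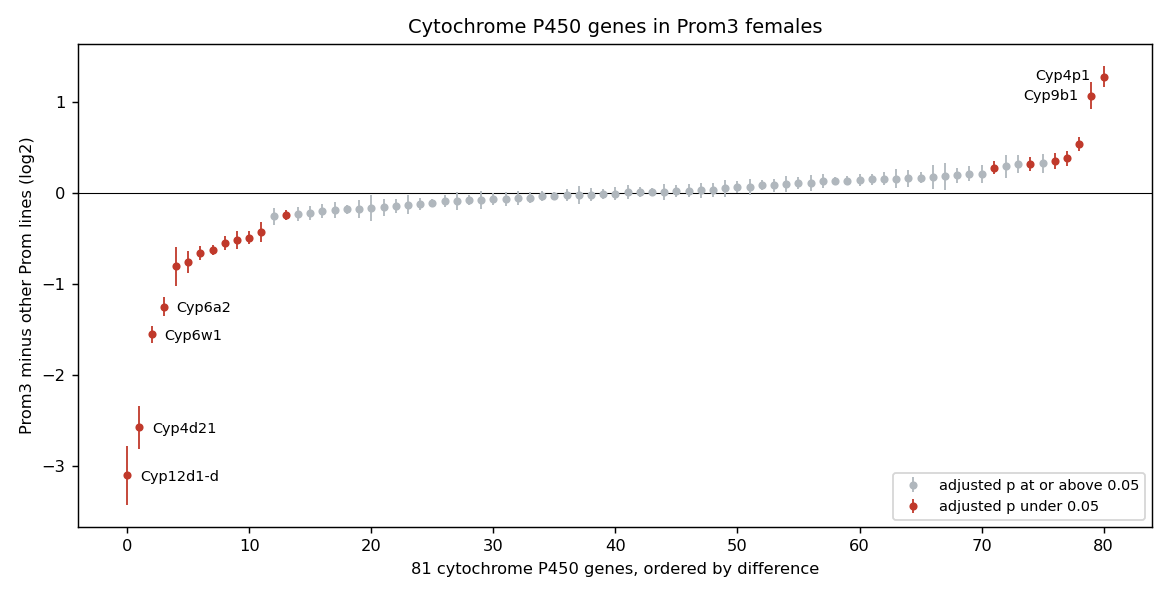
Difference between Prom3 and the mean of Prom1, Prom2 and Prom4 (log2, y axis) for the 81 measured cytochrome P450 genes, ordered by size along the x axis, with bars of 1 SE. Red marks the 20 genes with an adjusted p under 0.05, from Cyp12d1-d at -3.10 to Cyp4p1 at 1.28, and most of the other genes lie close to 0.

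Glutathione transferases showed 2 higher and 4 lower genes among 34 (17.6%, median -0.0098). Apart from GstO3 these were modest differences. GstD1, known to break down DDT, was 0.21 ± 0.05 higher, and GstD5 (-0.67 ± 0.11), GstS1 (-0.39 ± 0.08), GstE11 (-0.34 ± 0.08) and GstE14 (-0.25 ± 0.06), the last needed for ecdysteroid synthesis, were lower. Another line was close to Prom3 in 3 of these, with GstD1 at 13.56 in Prom4 and 13.50 in Prom3, GstD5 at 4.88 and 4.70 in the same lines, and GstE11 at 8.46 in Prom2 and 8.44 in Prom3. UDP-glycosyltransferases, another family of conjugating enzymes, had 1 higher gene of 35, Ugt37E1 (0.36 ± 0.09), and 0 lower (2.86%, median 0.04), with Prom2 at 5.17 beside Prom3 at 5.18.

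Sugar-splitting enzymes of the gut were examined next. Of 12 genes in the list of maltases, tobi and amylases 6 were higher in Prom3 and 2 lower (66.7% against 6.03% of all genes, median 0.46 against -0.0069). Mal-A6 stood at 11.27 and 11 with Mono3 mates and at 10.96 and 10.95 with Prom3 mates, against 8.42, 9.17 and 10.20 in the other promiscuous arrays. All 4 arrays were above the 12, and the first stood off from the other 3. The difference was 3.79-fold (adjusted p 1.50e-05), at 2.00 within batch 1 and 1.84 within batch 2.

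Mal-A2 read 9.40, 9.17, 9.12 and 9.06 against 8.02, 8.22 and 8.85 (0.86 ± 0.10), and Mal-A1 read 12.21, 11.90, 12.01 and 11.84 against 10.90, 11.28 and 11.76 (0.70 ± 0.09). Both stood apart from every other line. Mal-A7 (0.81 ± 0.15), Mal-A3 (0.68 ± 0.13) and Mal-A4 (0.57 ± 0.12) passed against the mean of the others but not against each line. Prom4 was the nearest line in these, for example at 8.12 against 8.34 in Prom3 for Mal-A4. Mal-A5, although it lies beside Mal-A6, went the other way. It was at 9.99, 10.08, 10.07 and 10.04 in Prom3 against 10.30 to 10.64 elsewhere in the regime, with no overlap (-0.44 ± 0.05, adjusted p 9.12e-05). Mal-B1, on arm 2L, was lower in Prom3 too (-0.76 ± 0.12). Its Prom3 arrays reached 6.13 against a lowest value of 6.12 in the other promiscuous lines, and no monogamous array was under 7.22. Against the mean of the monogamous lines the 6 raised genes did not pass, with differences from -0.16 (Mal-A7) to 0.17 (Mal-A2). The 2 lower genes did, at -0.19 for Mal-A5 and -1.79 for Mal-B1. Mal-A8 (0.03 ± 0.13), Mal-B2 (0.02 ± 0.06), Amyrel (-0.0063 ± 0.1077) and tobi, a glucosidase that responds to dietary protein (0.35 ± 0.11, adjusted p 0.0929), did not pass.

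**Figure D3:**
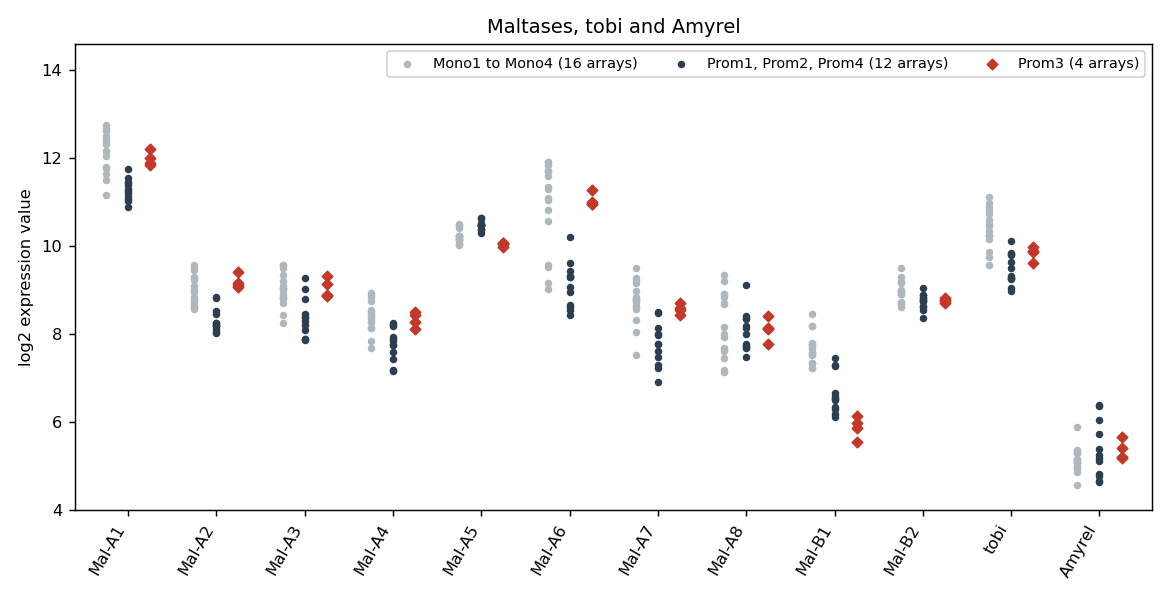
Log2 expression value (y axis) per array of the 10 maltase genes, tobi and the amylase-related Amyrel, for Prom3 (diamonds), the other promiscuous lines (dark points) and the monogamous lines (grey points). Prom3 arrays lie above the 12 others for Mal-A1, Mal-A2 and Mal-A6 and below them for Mal-A5.

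Digestive proteases moved less. Among 28 trypsins and Jonah proteases, serine proteases of the gut, 6 were lower in Prom3 and 0 higher (21.4%, median -0.05). The largest was Jon25Bii, at 13.19, 13.23, 13.09 and 13.04 against 13.28 to 13.62 (-0.30 ± 0.05, adjusted p 0.000831). Jon65Aiv (-0.26 ± 0.04) also stood apart from every line, and Jon65Aiii (-0.27 ± 0.06), Jon25Bi (-0.23 ± 0.04), Jon99Fi (-0.22 ± 0.06) and yip7 (-0.19 ± 0.05) passed against the mean. The gut markers alphaTry (0.12 ± 0.04, adjusted p 0.101) and betaTry (0.06 ± 0.05) did not pass. Whether the gut's share of RNA differed was not tested, and in whole flies fewer cells of a type and less RNA per cell cannot be told apart. Of the 3 measured lysozymes, LysX was lower (-1.48 ± 0.23) and LysP higher (0.48 ± 0.06), and for both Prom2 was the line nearest to Prom3. LysX had a mean of 6.46 in Prom2 and 5.72 in Prom3 against 7.55 and 7.57 in Prom1 and Prom4, and LysP one of 10.11 and 10.15 against 9.53 and 9.37.

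Several differences lay in neighbouring genes. The longest run of consecutive measured genes that all passed in one direction held 6 genes on arm 3R, all higher in Prom3, in the order CG31087 (0.50 ± 0.08), CG10559 (1.81 ± 0.13), CG10553 (0.46 ± 0.12), CG10560 (1.26 ± 0.14), CG10562 (0.42 ± 0.11) and CHKov1 (0.36 ± 0.06). CHKov1, at which a natural variant is known to give resistance to the sigma virus, belongs with CG10559, CG10560 and others of the run to the ecdysteroid kinase-like family. CG10559 read 6.64, 7.27, 6.48 and 6.73 in Prom3 against 4.29, 4.99 and 5.68, and CG10560 read 9.48, 9.61, 9.24 and 9.24 against 7.40, 8.21 and 8.83. In both, Prom3 was clear of the other promiscuous lines, while Mono1 was higher than Prom3, at means of 7.68 and 9.98. Other genes of the run lay closer to the rest, and CG10562 spanned 9.06 to 9.58 in Prom3 against 8.40 to 9.15 (adjusted p 0.0463). The list of this family held only CHKov1 and CHKov2, of which CHKov2 did not pass (-0.04 ± 0.07, list 50%, median 0.16).

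The second run was Mal-A1 to Mal-A4 on 2R. There were 5 further runs, each of 3 genes. On 2R CG30026 (0.98 ± 0.13), CG34054 (1.03 ± 0.11) and the aquaporin Drip (0.65 ± 0.08) were higher, and all 3 stood apart from every other line. Drip read 8.35, 7.79, 8.02 and 7.81 against 6.94, 7.37 and 7.72. On 3L Nt5a (-0.15 ± 0.03), Ctr9 (-0.46 ± 0.06), a subunit of the Paf1 transcription complex, and sturkopf (-0.42 ± 0.05), a lipid droplet protein, were lower. On 2L Vajk1 (-0.24 ± 0.06), Vajk2 (-0.38 ± 0.06) and Vajk3 (-0.48 ± 0.09) were lower. The remaining runs were Kpc2, CG15127 and CG34198 on 2R, lower by 0.20 to 0.28 in size, and CG15822, CG15879 and CG5704 on 3L, with differences of 0.29, 0.55 and 0.24.

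Some neighbours differed in opposite directions. Among 11882 pairs of adjacent measured genes, both members passed in one direction in 57 pairs and in opposite directions in 28. Over all genes 3.11% passed as higher and 2.92% as lower. Whether these counts of pairs exceed those of unrelated neighbours was not tested. In 14 pairs both genes stood apart from every other line, 10 in one direction and 4 in opposite directions, and the 4 were Odc1 with Odc2, Cyp9b1 with Cyp9b2, Mal-A5 with Mal-A6 and vanin-like with Btnd. Odc1 was at 9.25, 9.15, 8.88 and 8.96 in Prom3 against 7.96, 8.27 and 8.51 (0.82 ± 0.08, adjusted p 2.14e-05), and like Odc2 it did not overlap the other promiscuous lines. Cyp9b1 read 6.11, 6.16, 5.97 and 6.07 against 4.47 to 5.37, and Cyp9b2 read 9.24, 8.95, 9.16 and 8.73 against 9.34 to 9.72. Neither overlapped. Btnd, a biotinidase-related enzyme, was 0.77 higher and vanin-like 0.72 lower.

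Related copies without this full separation did the same. Obp57b, beside Obp57a, was lower in Prom3 (-0.38 ± 0.08), at 6.59 to 6.72 against 6.79 to 7.41. Of the Cyp4p copies Cyp4p1 was 1.28 ± 0.12 and Cyp4p2 0.35 ± 0.09 higher, whereas Cyp4p3 was lower (-0.49 ± 0.08). Other adjacent pairs that stood apart in one direction included Npc2a (-0.77), a sterol carrier, with Got2 (-0.54), an aspartate aminotransferase, and the trehalose transporter gene Tret1-2 (0.68) with Buffy (0.72), of the Bcl-2 family. Whether probe sets of related copies share signal was not tested.

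**Figure D4:**
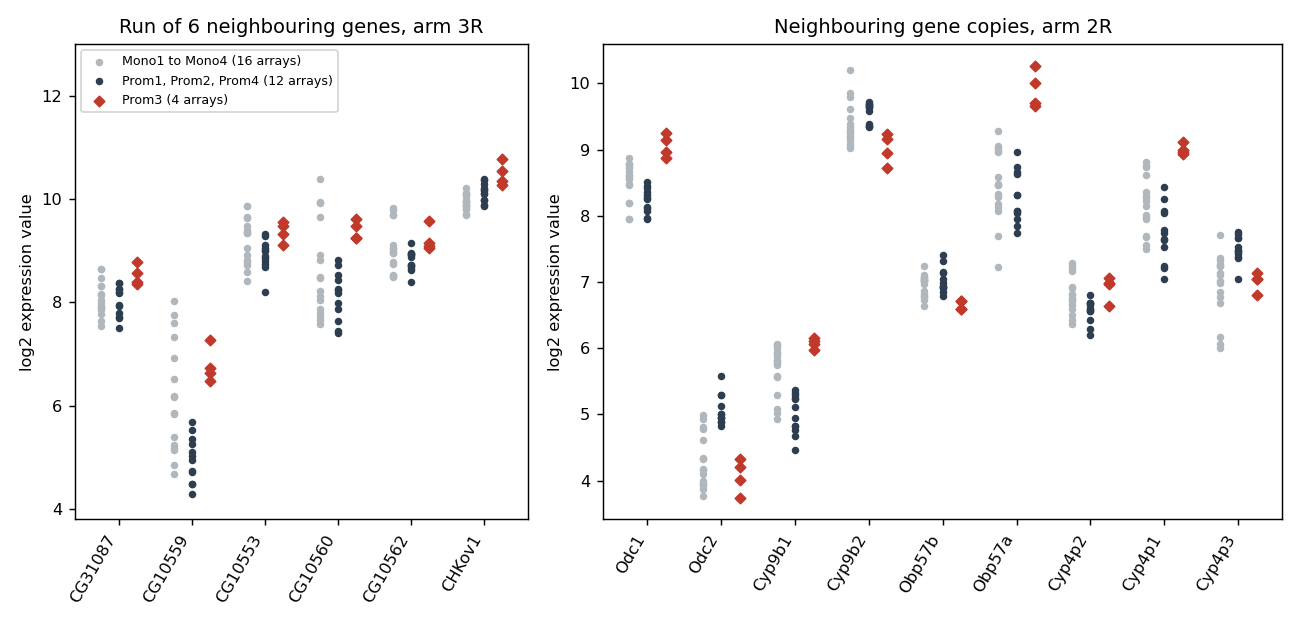
Log2 expression value (y axis) per array in the run of 6 neighbouring genes on arm 3R (left) and in related neighbouring copies on arm 2R (right), for Prom3 (diamonds), the other promiscuous lines (dark points) and the monogamous lines (grey points). In the left panel Prom3 is raised throughout, most in CG10559 and CG10560, while in the right panel copies such as Odc1 and Odc2 lie on opposite sides of the other promiscuous lines.

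Across chromosome arms, 7.50% of the 2427 genes on 2R passed, against 6.71% of 2205 on 2L, 5.67% of 2344 on 3L, 4.64% of 2974 on 3R, 5.93% of 1873 on the X and 6.15% of 65 on the fourth chromosome. Of the 151 genes that stood apart from every line, 57 lay on 2R (2.35% of its genes), 34 on 2L, 21 on the X, 18 on 3L, 17 on 3R and 1 on the fourth. These shares are descriptions, since neighbouring genes are not independent.

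Among genes of the senses and the nervous system, 9 of 48 odorant-binding proteins passed (18.8%, median -0.02), 4 higher and 5 lower. After Obp57a the higher ones were Obp56a (0.76 ± 0.20), Obp56h (0.54 ± 0.10) and Obp99c (0.17 ± 0.05). Obp99b (-0.70 ± 0.15), Obp44a (-0.56 ± 0.13), Obp57b, Obp99a (-0.32 ± 0.07) and Obp8a (-0.32 ± 0.08) were lower. For several of these Prom3 was not the outermost line. Obp56a averaged 8.35 in Prom3, between 8.08 in Prom1 and 8.41 in Prom2, and only Prom4 was far lower at 6.26. Obp99c was at 12.45 in Prom3 and 12.47 in Prom1, and Obp99a at 11.80 and 11.75 in the same lines. For Obp99b Prom3 was the lowest line, at 5.37, with Prom2 close to it at 5.52. Odorant and gustatory receptors, measured near the low end of the scale in whole flies, had 1 higher gene, Or1a (0.33 ± 0.08), and 1 lower, Gr22f (-0.28 ± 0.05), of 113 (1.77%, median -0.00096). Of 16 phototransduction genes only Gbeta76C, the eye's G protein beta subunit, passed (0.28 ± 0.06, 6.25%, median 0.06).

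Of 25 neuropeptide genes 2 were higher, Nplp1 (0.36 ± 0.06) and Eh, the eclosion hormone (0.36 ± 0.08), and 1 was lower, Nplp4 (12%, median 0.06). Nplp4, a neuropeptide-like precursor, was at 6.50, 6.72, 6.59 and 6.56 against 7.12, 7.41 and 7.67 (-0.78 ± 0.07, adjusted p 6.89e-06), clear of all other promiscuous arrays and apart from every line. None of 12 clock genes passed (0%, median -0.03), with Pdp1 at -0.70 ± 0.20 (adjusted p 0.0567) and vri at 0.17 ± 0.05 (adjusted p 0.0502). A share of 0% in a list of 12 cannot be told from the 6.03% of all genes.

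In the immune lists 0% to 16.7% of genes passed, against 6.03% of all genes. In a list of 5 or 6 genes a share of 0% cannot be told from that of all genes. PGRP-SC2 was the 1 higher gene of 38 in recognition and signalling (2.63%, median -0.02), and 0 were lower. None of 6 antimicrobial peptide genes passed (median -0.25). DptB was at -1.04 ± 0.54 and Mtk at -0.96 ± 0.58, both with wide errors, and the highest promiscuous mean was that of Prom1, at 8.87 and 9.98. Of 6 drosomycin-like genes Drsl4 was lower (-1.66 ± 0.15, adjusted p 9.34e-06, list 16.7%, median -0.15). It read 8.06, 8.38, 7.84 and 8.14 in Prom3, but Prom2 had a mean of 8.31 as well, against 10.47 in Prom1 and 10.50 in Prom4, so the groups overlapped. Among 9 Bomanins and related peptides BomS6 was lower (-0.63 ± 0.11, 11.1%, median -0.25), and BomS4 did not pass (-0.25 ± 0.07, adjusted p 0.0668). None of 5 Turandot genes passed (median 0.05). Of 28 serpins Spn38F was higher and Spn43Aa lower, and no other passed (7.14%, median -0.0054). Spn43Aa read 4.02, 4.07, 3.93 and 3.79 in Prom3 against 4.58, 4.96 and 6.01, without overlap.

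In the next lists, of reproduction, 0% to 7.14% of genes passed, against 6.03% of all genes. None of 22 yolk and eggshell genes passed (0%, median -0.09), nor did any of 11 ovulation and octopamine genes (median -0.04) or of 12 spermatheca and female tract genes (median -0.12). A share of 0% in lists of this size cannot be told from that of all genes. In the spermatheca list CG17234 was at -1.96 ± 0.65 and Send1, a spermathecal endopeptidase, at -0.78 ± 0.24 (adjusted p 0.108 and 0.0794). Of 42 germline genes 1 was higher, cuff (0.28 ± 0.06), which lets piRNA clusters be transcribed (list 7.14%, median -0.0081). The 2 lower ones were plu (-0.18 ± 0.04) and cort (-0.20 ± 0.05), both needed for cell cycle control in the egg or early embryo. For plu Prom4 was as low as Prom3, at 9.54 and 9.53.

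SPR, the receptor of sex peptide, was 1 of 2 higher genes among 13 of the sex peptide response (15.4% against 6.03% of all genes, median 0.06). It stood at 7.92, 7.70, 7.86 and 7.58 in Prom3 against 6.69, 7.44 and 7.71 in the other lines (0.45 ± 0.11, adjusted p 0.0263). The arrays overlapped, as Prom1 averaged 7.61 against 7.76 in Prom3 and 6.92 in Prom2. The other was Rgk1, a small GTPase (0.33 ± 0.08). Of 26 neprilysins, peptidases of which some act in female fertility, Nepl10 was higher (0.40 ± 0.08, 3.85%, median 0.04). No male accessory gland transcript of 22 passed (median -0.02), and no testis transcript of 28 (median -0.0044). None of 3 sex marker RNAs passed either (median 0.10).

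In hormone and metabolic lists, 0 of 12 juvenile hormone genes (median 0.09), 0 of 21 ecdysone genes (median 0.04) and 0 of 16 insulin and TOR genes (median 0.08) passed. Over all genes 6.03% passed, and 0% in lists of 12 to 21 genes cannot be told from that. Of 29 lipid genes the fatty acid synthase FASN2 was lower and apart from every line (-0.39 ± 0.07, 3.45%, median 0.04). Of 3 fat body storage proteins Fbp1 was higher, at 6.01, 5.16, 5.96 and 5.35 against 4.49 to 5.21 (0.76 ± 0.14, 33.3%, median -0.09). Its batch 1 arrays were the higher ones with each mate. The abundant storage protein Lsp2 did not pass (-0.15 ± 0.10). Among 16 zinc transporters foi (0.19 ± 0.05) and Zip42C.2 (0.37 ± 0.10) were higher (12.5%, median 0.05), although Zip42C.2 averaged 6.67 in Prom1 and 6.63 in Prom3.

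Of 105 cuticle proteins 2 were higher and 6 lower (7.62% against 6.03% of all genes, median -0.04). This share, like those of the sarcomere and heat shock lists that follow, lay near that of all genes. The largest cuticle differences were in Cpr47Ea (-0.72 ± 0.09), Acp65Aa (-0.92 ± 0.23), Cpr62Bc (-0.58 ± 0.15), Cpr72Ec (0.57 ± 0.09), Cpr51A (0.47 ± 0.07) and Cpr47Ee (-0.45 ± 0.07), the last 3 apart from every line. Of 22 sarcomere genes 2 were lower (9.09%, median 0.07), both of the indirect flight muscle. Act88F, its actin, read 12.03, 11.45, 11.37 and 11.11 against 11.38, 12.23 and 12.77 (-0.71 ± 0.15), and fln, flightin, read 11.42, 10.82, 10.83 and 9.99 against 11.02, 11.84 and 12.16 (-0.94 ± 0.21). Prom3 overlapped the others in both. Of 14 heat shock genes the cognate Hsc70-1 was lower (-0.37 ± 0.08, 7.14%, median -0.06). None of 41 cytosolic ribosomal proteins (median 0.02), 69 mitochondrial ribosomal proteins (median 0.02), 76 oxidative phosphorylation genes (median -0.04) or the 1 measured histone gene His2Av (-0.04 ± 0.04) passed.

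Mono3 gave a second view, because Mono3 females were mated to males of the same populations as Prom3 females. Mono3 differed from Mono1, Mono2 and Mono4 at 828 genes (6.91%). Of the 151 genes at which Prom3 stood apart, Mono3 passed with the same sign as Prom3 in 40 and with the opposite sign in 9. For Mono1 these counts were 17 and 50, for Mono2 21 and 17 and for Mono4 22 and 24, against backgrounds of 7.29%, 6.15% and 6.67% of all genes, and the 4 monogamous contrasts share arrays with each other. The shift of Prom3 within its regime was then tested against that of Mono3 within its own, and 590 genes differed (4.92%).

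Of the 30 genes named by rule, 18 differed between the shifts and 12 did not pass. These 30 were picked for a large Prom3 shift on the same arrays, which favours a difference. The 12 included Cyp12d1-d, whose shift was -3.10 in Prom3 and -2.80 in Mono3 (difference -0.30 ± 0.45, adjusted p 0.821), Cyp4d21 with -2.57 and -2.01 (-0.56 ± 0.37), Cyp6a2 with -1.24 and -1.15 (-0.10 ± 0.14), and CG42254 with -1.43 and -1.18 (-0.25 ± 0.19). In Mono3 these genes were low too, at means of 4.29, 3.83, 6.05 and 5.94. Mal-A6 was 1.92 higher in Prom3 and 1.21 higher in Mono3 (0.71 ± 0.25, adjusted p 0.127), and Drep1 1.31 and 0.97 higher (0.33 ± 0.18). Intervals of this width do not show that the shifts were equal. For GstO3 and CG2772, which differed between the shifts, Mono3 showed a shift of 0.0043 and -0.48, neither of which passed (adjusted p 0.991 and 0.188). CG31955 went opposite ways, 1.98 lower in Prom3 and 1.58 higher in Mono3, each relative to its own regime (difference -3.56 ± 0.20, adjusted p 9.62e-12).

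**Figure D5:**
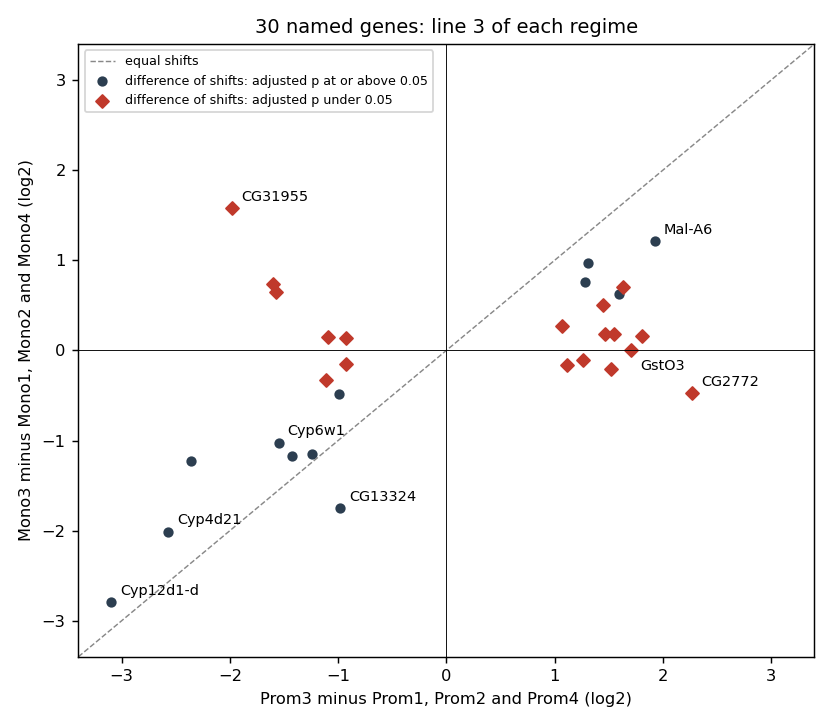
Shift of Prom3 from the other promiscuous lines (x axis, log2) against the shift of Mono3 from the other monogamous lines (y axis, log2) for the 30 named genes, with the dashed line marking equal shifts. Diamonds are the 18 genes whose shifts differed with an adjusted p under 0.05, and the low P450 genes Cyp12d1-d and Cyp4d21 lie near the dashed line while GstO3 and CG2772 lie near or below 0 on the y axis.

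Prom3 was also placed beside the monogamous lines as a whole, and differed from their mean at 985 genes (8.22%). Over probe sets the count was 1197, and 674 or 786 without the Prom3 array of Mono3 mates in batch 1 or in batch 2. GstO3 was 2.02 ± 0.11 above the monogamous mean, CG32751 3.16 ± 0.23 above and CG31955 was lower than it (-2.05 ± 0.14). By contrast Mal-A6 differed from the monogamous mean by 0.16 ± 0.17 (adjusted p 0.700), Odc2 by -0.23 ± 0.12 (adjusted p 0.330) and CG30083 by -0.13 ± 0.22 (adjusted p 0.831). The monogamous lines were not alike at these genes. Odc2 averaged 4.07 in Prom3 and 3.93 to 4.29 in Mono2, Mono3 and Mono4, but 4.88 in Mono1, near the 5.05 to 5.08 of the other promiscuous lines. Mal-A6 averaged 11.04 in Prom3 and 9.32, 11.47, 11.79 and 10.94 in Mono1 to Mono4, against 8.65, 9.21 and 9.50 in Prom1, Prom2 and Prom4, so that Mono1 lay among those 3 lines. The other promiscuous lines were not tested against the monogamous ones.

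Finally, the response of Prom3 females to the regime of their mate was compared with that of the other promiscuous lines, as the difference between promiscuous and monogamous mates. No probe set passed in limma (0 of 18769, or 0%), and 793 had an unadjusted p under 0.05. The genes of lowest p toward a higher response were CG10357 (0.62 ± 0.14), CG13540 (0.44 ± 0.10), drl (0.45 ± 0.10), CG31262 (0.47 ± 0.12) and Trf4-1 (0.33 ± 0.08). Toward a lower response they were CG14857 (-0.53 ± 0.11), CG8157 (-0.67 ± 0.15), CG9452 (-0.57 ± 0.13), the FGF ligand bnl (-0.52 ± 0.12) and tsh, a zinc finger transcription factor (-0.38 ± 0.09). All 10 had an adjusted p of 0.969. Prom3 contributes 2 arrays per mate to this test. It called 5 probe sets without the Prom3 array of Mono3 mates in batch 2 and 1 without that of Prom3 mates in batch 1.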

How the data were processed

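Expression was measured on Affymetrix arrays of whole mated females, 4 arrays per female population. The authors deposited log2 values, 1 per probe set and array, made with RMA and the affy package per the submitters' processing notes, which give no versions. RMA brings all arrays to one distribution of intensities, which takes out any overall change of transcript level. Precision is limited by the small number of arrays, and the table gives no background for single probe sets.

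Of 18952 probe sets 183 array controls were left out. The platform annotation gave 1 gene for 13647 probe sets, several for 402 and none for 4720. Of the 13647, 13544 matched the RefSeq gene table of Release 6 plus ISO1 MT, which supplied symbols, arms and gene order, and 103 kept their given name. The brightest probe set stood for each of 11982 genes.

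Tests used limma 3.58.1 in R 4.3.3 (lmFit and eBayes, two-sided, Benjamini-Hochberg over all probe sets, threshold 0.05). The line comparison was fitted on the 16 promiscuous arrays with terms for female population, mate regime and batch (10 residual degrees of freedom). Batch, which the labels give and the titles number, is thus the replicate block. Deviations from line means correlated across lines at a median of 0.137 within a batch and -0.109 between batches. Comparisons with monogamous lines used all 32 arrays. Named genes were the 15 with the largest difference in each direction among those passing against the mean of the other lines and each of them, up to 4 members of lowest p in each gene list, 5 genes per direction for the mate response, and the longest runs of neighbours. Other genes, among them further passing list members, opposite neighbours and Cyp6g1, were chosen after their values were seen. The lines, lists and members were chosen with earlier results of these data known. Errors are standard errors from the fit unless called SD. No 2 arrays held identical values.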

Additional observations from a re-analysis of the deposited data

Results flagged for a closer look

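In 3 of the 103 genes tested among the named genes and passing list members, 1 of the 4 Prom3 arrays stood far from the other 3. Chance alone gives such a gap in about 1 group in 20. Mal-A6 read 11.27 with Mono3 mates in batch 1 and 10.95 to 11 on the other arrays. CG13324 read 7.71 with Prom3 mates in batch 1 against 8.15 to 8.21, and Obp8a read 5.64 on the same array against 5.94 to 5.97.

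The shift of Prom3 within its regime differed from that of Mono3 within its own in 18 of the 30 named genes, by limma's test of the difference itself. Over all genes 590 of 11982 differed (4.92%). Since the 30 were picked for a large Prom3 shift on these same arrays, the choice favours such a difference. On the higher side the difference of shifts was 2.75 for CG2772, 1.73 for Spn38F, 1.70 for GstO3, 1.65 for CG10559, 1.37 for CG32751, 1.36 for CG10560, 1.28 for CG13325, 1.27 for CG9672, 0.94 for Rdh1, 0.93 for Obp57a and 0.80 for Cyp9b1. On the lower side it was -3.56 for CG31955, -2.33 for CG13947, -2.21 for CG30083, -1.25 for CG7882, -1.06 for CG9784, -0.78 for Spn43Aa and -0.77 for CG33109. Adjusted p-values ran from 9.62e-12 for CG31955 to 0.0428 for Obp57a. A difference of shifts depends on the other lines of each regime as well as on Prom3 and Mono3. Rdh1, for example, averaged 8.43 in Prom3 and 8.44 in Mono3, whereas CG2772 averaged 6.98 and 4.46. For Spn38F the Mono3 arrays were split by batch, at 2.94 and 3.04 in batch 1 and 5 and 4.13 in batch 2. Mono4, among the lines it was set against, averaged 6.06. The remaining 12 genes, among them the low P450 genes Cyp12d1-d, Cyp4d21, Cyp6a2 and Cyp6w1, did not pass.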

How the results depend on the processing

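The line difference covered 924 probe sets and fell to 249 in batch 1 alone, 163 in batch 2 alone, 153 with monogamous mates alone and 197 with promiscuous mates alone, each with fewer arrays, and to 6 with population means as replicates. Leaving out 1 array gave 574 to 935, the lowest without the Prom3 array of Mono3 mates in batch 1 and 586 without that of Prom3 mates in batch 1. Separation from every other line (188 probe sets) fell to 51 in batch 1 and 31 in batch 2 and was 135 to 176 without 1 array. The mate response (0) gave 5 probe sets without the Prom3 array of Mono3 mates in batch 2, 1 without that of Prom3 mates in batch 1, and 0 to 5 over all arrays left out. The difference from the Mono3 shift (750) gave 595 to 753. The difference from monogamous lines (1197) gave 674 to 915, with 674 and 786 without the Prom3 arrays of Mono3 mates in batch 1 and batch 2. With no replicate block these 5 counts were 720, 150, 0, 586 and 912, which moved none by over 1.5 times. Other settings left the count of 924 between 729 (without Prom1) and 1105 (mean-variance trend). The 30 named genes were chosen on these same arrays, which favours agreement between settings. Of the 30, 0 changed direction in any setting and 30 passed whichever array was left out. In batch 1 alone 28 passed, in batch 2 alone 23 and with population means 4. Named genes have 1 probe set each, so no second one could be tried. Cyclic loess moved the median difference from -0.0077 to -0.0022. Signals near the floor, as in Spn38F and Cyp4d21, limit the size of a difference.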

Other observations

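Of the 188 probe sets at which Prom3 stood apart from every other promiscuous line, 23 had no gene named here and 6 had several. Of the unnamed ones, 2 passed with population means as replicates. The first was lower in Prom3 by -3.83 ± 0.40 log2 units, at 5.83, 5.63, 6.45 and 3.01 on the Prom3 arrays against 8.56 to 9.50 on the other 12, with means of 8.90, 6.54, 3.52 and 5.62 in Mono1 to Mono4. Cyp12d1-d had a similar profile, at 5.16, 5.89, 6.39 and 3.90 on the Prom3 arrays and means of 8.54, 6.21, 4.29 and 6.52 in Mono1 to Mono4. Whether this probe set reads the same transcript was not tested. The second was higher by 1.97 ± 0.05, at 12.62 to 12.76 against 10.49 to 10.94, and Mono3 was the monogamous line nearest to it at a mean of 12.38.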
